A study of Mus musculus with 5 samples.

Results

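Mouse mammary epithelial cells sorted with high surface CD29 (4 libraries) were compared with the 1 library sorted with low CD29, whichever lineage label the cells carried. CD29 is the integrin beta chain encoded by Itgb1. The 4 CD29hi libraries are LdBC 1 and LdBC 2, from GFP-positive cells that the labels name luminal-derived basal cells, and basal 1 and basal 2, from TdTomato-positive basal cells. The CD29low library comes from GFP-positive luminal cells. Among 10626 genes tested, those at a similar level in both CD29hi groups, with LdBC and basal means within 1 log2 unit, numbered 6386 (60.1%). Within them, 645 genes were at least 4-fold higher and 557 at least 4-fold lower in every CD29hi library than in the luminal library. Levels are FPKM, which count fragments per length of transcript and per size of library, and differences are on the log2(FPKM + 1) scale, where 4-fold is 2 units, unless a ratio of FPKM is named.

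All 5 libraries came from adult virgin mice that were ovariectomized and carried hormone pellets for 14 days, and all cells were lineage-negative and CD24-positive. Each library was amplified from about 50 sorted cells. The hormones in the pellets, the drivers of the GFP and TdTomato labels, and whether replicate libraries stem from different animals are not stated in the sources at hand. The spread behind each p-value is that between the deposited libraries and may be technical.

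The mammary duct has an inner layer of luminal cells and an outer basal layer. Basal cells contract under oxytocin to expel milk, anchor to the basement membrane through integrins, and are recognised by keratins 5 and 14, smooth muscle actin and the transcription factors p63 and Slug. Luminal cells carry keratins 8, 18 and 19 and include hormone-sensing cells with oestrogen and progesterone receptors. CD29 is raised on basal cells, which is why it separates the layers in flow sorting.

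The sort genes were read first. Itgb1 had 22.9 FPKM in the luminal library, 63.7 and 83.7 in LdBC, with 77.3 and 93.4 in basal libraries. All 4 CD29hi libraries lay above the luminal one, at a similar level in both groups, and the difference of 1.74 ± 0.29 (SE) did not pass the threshold of 0.05 (limma, Benjamini-Hochberg adjusted p = 0.0558). It passed with median-of-ratios scaling (2.31, adjusted p = 0.043), quantile normalization (2.46, adjusted p = 0.0327), a pseudocount of 0.1 (adjusted p = 0.0443) and a mean FPKM of at least 5 (adjusted p = 0.0372). Cd24a, used to select every population, had 488 FPKM in the luminal library and 95.2 to 203 in the CD29hi libraries, lower by limma (-1.84 ± 0.23, adjusted p = 0.0415). This call was lost with median-of-ratios scaling (-1.24, adjusted p = 0.0753), quantile normalization (-1.11, adjusted p = 0.0763) and no filter on low values (adjusted p = 0.0503).

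The defining markers of the layers did not show a basal program at full level in LdBC. Krt5 was listed at 0 in the luminal library, at 29.4 and 20.0 FPKM in LdBC, with at 206 and 201 in basal libraries. Acta2, smooth muscle actin, was listed at 0 in the luminal library, at 349 and 820.4 in LdBC, with at 3941 and 3799.6 in basal libraries. Krt14 was at 0, then 751 and 992, then 2682 and 2206. For these 3 genes every LdBC library lay between the luminal library and both basal libraries. In pooled cells, fewer cells with a transcript and less of it per cell cannot be told apart. Trp63, which encodes p63, was listed at 0 in the luminal library and LdBC 1, at 3.57 FPKM in LdBC 2 and at 24.4 and 20.2 in basal libraries. The luminal keratins went the other way: Krt18 had 10755 FPKM in the luminal library, 14101 and 12798 in LdBC, with 194 and 172 in basal libraries. Krt8, Krt19 and Epcam also had LdBC means above basal means by 4.29, 7.16 and 2.52 log2 units. The genes described from here are therefore called shared CD29hi genes, after the rule that chose them, and not a basal program.

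The libraries differed in how many genes they detected. The luminal library had a value above 0 for 8041 of 12293 genes, LdBC 1 for 9201, and the other 3 for 10627 to 10979. There were 162 genes listed at 0 in the luminal library with at least 10 FPKM in all 4 CD29hi libraries, against 26 such genes for LdBC 1 alone and 0 to 5 for each other library. Within 1 log2 unit of each other were 78.2% of genes in the basal pair, 57.3% in the LdBC pair, 49.8% to 55.1% between an LdBC and a basal library, 39.0% and 39.3% between LdBC and luminal libraries, and 31.1% and 31.4% between basal and luminal libraries. Only 1 luminal library enters the comparison, and what is particular to that library cannot be told apart from the gate.

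Across the table, all 4 CD29hi libraries were at least 4-fold above the luminal library for 890 genes (8.38%) and at least 4-fold below it for 786 genes (7.4%). Of the 890 higher genes, 645 (72.5%) were at a similar level in LdBC and basal libraries, 132 had the higher mean in LdBC and 113 in basal libraries. Of the 786 lower genes, 557 (70.9%) were at a similar level. Limma called 369 genes higher (3.47%) and 418 lower (3.93%) over all genes tested, and among the 6386 genes at a similar level 241 higher (3.77%) and 299 lower (4.68%). Similarity was judged on the same libraries, so these shares are a description. The contrast averages the LdBC and basal means, so a call can hold for only 1 of the groups. Krt18 was called lower (-2.78, limma adjusted p = 0.0325) although both LdBC values lay above the luminal one. Leaving out LdBC 1, LdBC 2, basal 1 or basal 2 leaves a lone library in its group and fewer residual degrees of freedom. Whether the calls hold without a given library therefore cannot be decided. The counts past 4-fold need no such fit. Without those libraries in turn they were 1193, 1063, 1009 and 1021 higher and 966, 1127, 858 and 850 lower. With fewer libraries to pass, these counts can only stay or rise, so they do not test the 890 and 786.

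**Figure D1:**
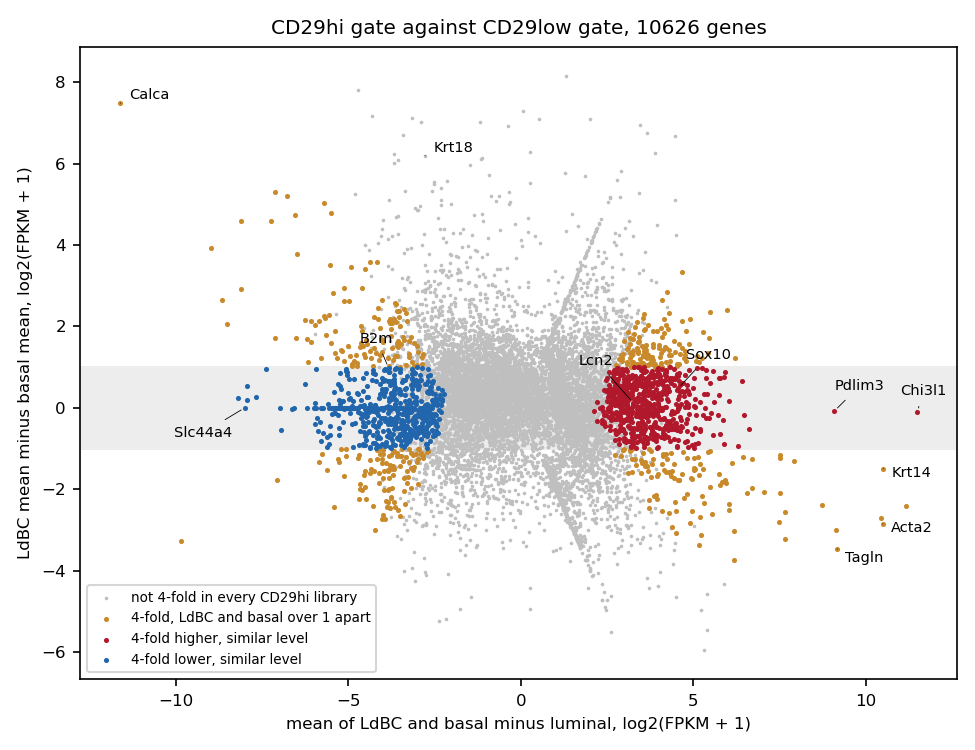
Each point is 1 of 10626 genes, with the mean of LdBC and basal minus luminal on the x axis and the LdBC mean minus the basal mean on the y axis, both in log2(FPKM + 1); the grey band marks 1 log2 unit. The 645 red and 557 blue genes lie inside the band, with Chi3l1 and Pdlim3 farthest right, while Krt14, Acta2 and Tagln lie below it and Krt18 above it.

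Of the 645 shared higher genes, 390 were listed at 0 in the luminal library and 255 were above 0 there. For the former no fold can be given. In 259 of the 645, all 4 CD29hi libraries lay within 1 log2 unit of each other. Of the 557 shared lower genes, 97 were listed at 0 in all 4 CD29hi libraries, and 259 had all 4 within 1 log2 unit.

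Chi3l1, Pdlim3, Sox10 and Lcn2 mark the shared higher genes. Promoters of the 3 that have one in the table of RefSeq promoters (GRCm38.p6) are printed with that of Vcl, a shared adhesion gene, because these genes were at nearly the same level in LdBC and basal libraries. Each is the 250 bases before the start site on the strand of the gene. They were searched on both strands for the SOX core ACAAT, the TEAD motif GGAATG, the AP-1 motif TGANTCA, the Slug E-box CAGGTG and the CArG box, the binding motif of serum response factor. Capitals mark the matches, whichever strand they lie on.
Chi3l1: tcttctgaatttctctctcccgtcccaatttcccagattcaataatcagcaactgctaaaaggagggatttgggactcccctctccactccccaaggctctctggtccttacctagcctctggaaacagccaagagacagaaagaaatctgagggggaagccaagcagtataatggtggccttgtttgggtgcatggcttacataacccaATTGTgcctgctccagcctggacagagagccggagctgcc
Pdlim3: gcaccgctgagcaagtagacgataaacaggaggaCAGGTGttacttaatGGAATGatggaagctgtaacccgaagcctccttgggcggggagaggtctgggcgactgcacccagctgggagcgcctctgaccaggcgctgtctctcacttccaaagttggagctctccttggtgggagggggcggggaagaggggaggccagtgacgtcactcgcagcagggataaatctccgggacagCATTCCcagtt
Lcn2: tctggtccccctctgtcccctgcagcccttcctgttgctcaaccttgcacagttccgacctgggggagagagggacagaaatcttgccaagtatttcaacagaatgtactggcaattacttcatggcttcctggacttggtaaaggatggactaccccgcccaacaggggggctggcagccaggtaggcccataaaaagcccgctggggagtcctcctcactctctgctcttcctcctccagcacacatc
Vcl: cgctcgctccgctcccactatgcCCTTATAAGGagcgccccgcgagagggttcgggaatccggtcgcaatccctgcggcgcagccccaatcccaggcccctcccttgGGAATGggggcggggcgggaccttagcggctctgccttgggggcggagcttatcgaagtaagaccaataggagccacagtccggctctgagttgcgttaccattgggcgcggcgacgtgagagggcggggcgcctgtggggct
The Chi3l1 window (chr1:134181906-134182155, plus strand) held 1 SOX core on the minus strand. The Pdlim3 window (chr8:45885237-45885486, plus strand) held 2 TEAD motifs and 1 Slug E-box, the Vcl window (chr14:20929148-20929397, plus strand) held 1 TEAD motif and 1 CArG box, and the Lcn2 window (chr2:32387740-32387989, minus strand) held none of the 5 motifs. These letters are common: GGAATG stood in 12.6% of all 27025 windows of this length, in 10.4% of the 8339 windows of genes tested and in 11.1% of the 497 windows found for the 645 shared higher genes. In the same order, the shares were 28.3%, 17.2% and 15.1% for ACAAT, 6.87%, 4.35% and 5.03% for TGANTCA, 17.1%, 15.0% and 10.5% for CAGGTG, and 1.4%, 1.15% and 1.21% for the CArG box. The matches are a description of these windows and say nothing of binding.

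Chi3l1 encodes a secreted chitinase-like glycoprotein without chitinase activity. It had 0.0989 FPKM in the luminal library, 3053 and 3035 in LdBC, with 3497 and 3053 in basal libraries. The 4 CD29hi libraries stood together within 0.2 log2 units, and the difference from the luminal library was 11.49 ± 0.16 (SE; limma, adjusted p = 0.00817, the smallest over all genes tested). Apoe, a lipid carrier that basal cells also secrete, was not at a similar level, with 0.28 FPKM in the luminal library, 859 and 1916 in LdBC, with 7198 and 6393 in basal libraries.

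Pdlim3, a PDZ and LIM domain protein that binds alpha-actinin on actin filaments, was listed at 0 in the luminal library. It had 523 and 537 FPKM in LdBC, with 583 and 536 in basal libraries, a mean of 545 ± 26.5 (SD, n = 4). The CD29hi libraries spanned 0.16 log2 units, and limma called it higher (9.09 ± 0.19, adjusted p = 0.0101). Tagln, another actin-binding protein of smooth muscle, was also at 0 in the luminal library but had 172 in each LdBC library and 1953 and 1878 in basal libraries.

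Sox10, a transcription factor of neural crest and glia that is also made by mammary basal cells, had 0.352 FPKM in the luminal library, 37.0 and 35.9 in LdBC, with 22.7 and 29.7 in basal libraries. Both LdBC values lay above both basal values, by 0.47 log2 units between the means, and all 4 were far above the luminal value (4.56 ± 0.37, limma adjusted p = 0.0325). Of 8 tested genes of a Schwann cell list, 4 (50.0%) were at least 4-fold higher in every CD29hi library, beside 8.38% of all genes. Sox10 was the only one of the 8 at a similar level in both groups. The summed FPKM of that list was 20.2 in the luminal library, 108 and 207 in LdBC, with 234 and 191 in basal libraries. Mbp, a myelin gene, had 14.6 FPKM in the luminal library and 9.63 to 26.5 in the CD29hi libraries, which overlapped it. The part of Schwann cell RNA in the Sox10 result was not tested.

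Lcn2, a secreted lipocalin that binds bacterial siderophores, was abundant in every library. It had 269.9 FPKM in the luminal library, 3092 and 2356 in LdBC, with 2503 and 2435 in basal libraries. The lowest CD29hi library was 8.73 times the luminal one in FPKM, and limma called it higher (3.25 ± 0.21, adjusted p = 0.0325).

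Shared higher genes with a role at adhesion sites, in the actin cytoskeleton or in the matrix are given together here, without a claim that such genes are more frequent. Trip6, a zyxin-family protein of focal adhesions, had 0.0944 FPKM in the luminal library, 59.9 and 49.5 in LdBC, with 45.8 and 52.6 in basal libraries (5.59 ± 0.33, limma adjusted p = 0.0325). Vcl, vinculin, which couples integrin adhesions to actin, had 0.162 in the luminal library, 44.1 and 49.0 in LdBC, with 48.3 and 44.5 in basal libraries (5.35 ± 0.31, adjusted p = 0.0325). LdBC and basal values of both genes overlapped, and the LdBC and basal means of Vcl differed by less than 0.01 log2 units. Smtn, smoothelin of smooth muscle actin fibres, had 0.845 FPKM in the luminal library, 63.7 and 44.5 in LdBC, with 48.6 and 39.3 in basal libraries (4.74 ± 0.38, adjusted p = 0.0325). Cd44, the hyaluronan receptor, had 11.2 in the luminal library, 92.8 and 71.5 in LdBC, with 73.4 and 74.6 in basal libraries (2.69 ± 0.28, adjusted p = 0.0359), so that its lowest CD29hi library was 6.41 times the luminal one. Thbs1, the matrix glycoprotein thrombospondin, had 16.4 in the luminal library, 199 and 196 in LdBC, with 268 and 278 in basal libraries (3.74 ± 0.18, adjusted p = 0.0325). Both basal values of Thbs1 lay above both LdBC values, by 0.47 log2 units between the means.

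**Figure D2:**
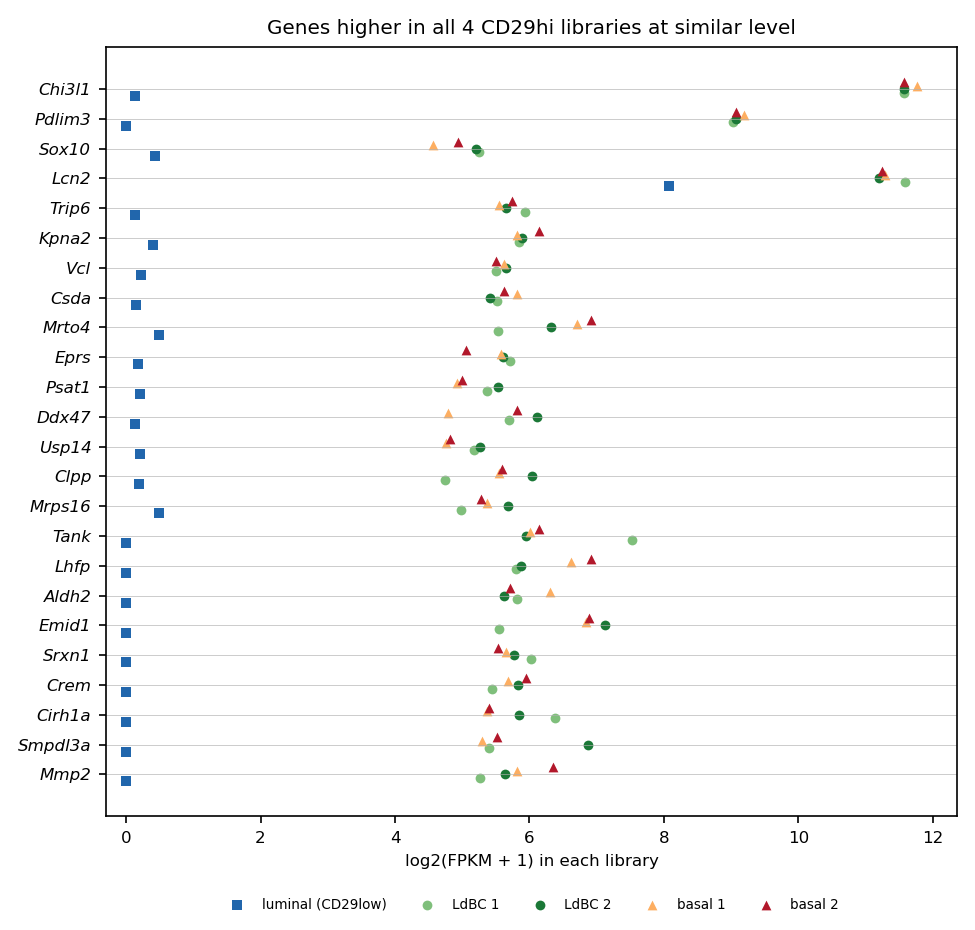
The x axis gives log2(FPKM + 1) in each library for the 4 markers, then the genes named by size of difference; squares are the luminal library, circles LdBC and triangles basal libraries. All CD29hi points lie right of the luminal square, and the circles and triangles of Chi3l1, Pdlim3 and Vcl nearly coincide while LdBC 1 of Tank and LdBC 2 of Smpdl3a lie to the right of the other 3.

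The other 9 genes above 0 in the luminal library and with the largest gaps were Kpna2 (an importin for nuclear proteins), Csda (a Y-box protein that binds nucleic acids), Mrto4 and Ddx47 (ribosome assembly), Eprs (glutamyl-prolyl-tRNA synthetase), Psat1 (serine synthesis), Usp14 (a deubiquitinase of the proteasome), Clpp (a mitochondrial protease) and Mrps16 (a mitochondrial ribosomal protein). In the luminal library these 9 genes had between 0.0941 FPKM (Ddx47) and 0.403 FPKM (Mrto4). Kpna2 had 56.3 and 58.2 FPKM in LdBC, with 55.4 and 70.0 in basal libraries (5.52 ± 0.31, limma adjusted p = 0.0325). Mrto4 had 45.1 and 78.9 in LdBC, with 103 and 120.1 in basal libraries (5.88 ± 0.43, adjusted p = 0.0325). LdBC and basal values of Kpna2 overlapped, and those of Mrto4 did not, with means 0.89 log2 units apart. Psat1 was ordered the other way, with 40.2 and 45.2 in LdBC above 29.4 and 30.9 in basal libraries (5.0 ± 0.34, adjusted p = 0.0325). Limma called the other 6 higher too, by 4.80 (Usp14) to 5.48 (Ddx47), with adjusted p from 0.0325 to 0.0388.

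Among genes listed at 0 in the luminal library, the 10 with the highest lowest CD29hi level were Pdlim3, Tank, Lhfp, Aldh2, Emid1, Srxn1, Crem, Cirh1a, Smpdl3a and Mmp2, and limma called all 10 higher. Mmp2, a gelatinase that degrades basement membrane collagen, had 37.4 and 49.0 FPKM in LdBC, with 55.5 and 80.9 in basal libraries (adjusted p = 0.0325). Both basal values lay above both LdBC values. Mmp2 is also made by fibroblasts. Of 10 genes of a fibroblast list in the table, 9 were at 0 in the luminal library and 7, 4, 0 and 1 in LdBC 1, LdBC 2, basal 1 and basal 2, and the summed FPKM was 305, 62.1, 79.3, 350.1 and 332 in the same order. Most of the luminal and basal sums came from Dcn, the matrix proteoglycan decorin, at 305 FPKM in the luminal library, 26.8 and 67.0 in LdBC, with 275 and 268 in basal libraries. The part of fibroblast RNA in the Mmp2 result was not tested.

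Aldh2, the mitochondrial aldehyde dehydrogenase, had 55.3 and 48.2 FPKM in LdBC, with 78.4 and 51.2 in basal libraries, and Srxn1, a sulfiredoxin that repairs oxidised peroxiredoxins, had 64.0 and 53.6 in LdBC, with 49.5 and 45.2 in basal libraries. Crem, a transcription factor that answers cyclic AMP, had 42.4 and 55.9 in LdBC, with 50.4 and 60.8 in basal libraries. The values of LdBC and basal libraries overlapped for Aldh2 and Crem. For Srxn1 both LdBC values lay above both basal values. Lhfp, a membrane protein, had 54.5 and 57.7 in LdBC, with 97.3 and 119 in basal libraries, which did not overlap. Emid1, an extracellular protein with an EMI domain, had 45.9 in LdBC 1 and 114 to 138 in the other 3 CD29hi libraries. Tank, an adaptor of TRAF signalling, had 183 in LdBC 1 and 60.9 to 69.9 in the other 3, and Smpdl3a, a sphingomyelinase-like phosphodiesterase, had 116 in LdBC 2 and 38.4 to 44.9 in the other 3. In each of these 3 genes a single LdBC library lay farthest from the others. Tank and Smpdl3a are among the genes flagged below for a library apart, and Emid1 is not. Cirh1a, a part of the machinery that assembles the small ribosomal subunit, had 82.5 and 56.4 in LdBC, with 40.2 and 41.3 in basal libraries.

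Because the luminal library lists more genes at 0 than the others, sets of genes that every cell uses were counted beside the shared genes; these sets were chosen after the values were seen. All 44 genes of oxidative phosphorylation, 36 of the proteasome and 12 of RNA polymerase II were above 0 in every library. Of 55 ribosome assembly genes, 10 were listed at 0 in the luminal library, 3 in LdBC 1, 1 in LdBC 2 and 0 in either basal library. Of 33 aminoacyl-tRNA synthetases, 7 were at 0 in the luminal library, 3 and 1 in LdBC, with 4 and 2 in basal libraries. Of 55 translation initiation factors, 4 were at 0 in the luminal library and 3, 2, 1 and 0 in the CD29hi libraries, and of 75 mitochondrial ribosomal proteins 5 were at 0 in the luminal library and 2, 0, 0 and 0 in the others. Zeros in genes of general use were thus most frequent in the luminal library in these 4 sets, and a 0 there cannot be told apart from a failed detection. The contractile genes had more: 14 of 27 were at 0 in the luminal library, 6 and 2 in LdBC, and 0 in basal libraries. The part of lost transcripts in the shared higher genes was not tested.

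**Figure D3:**
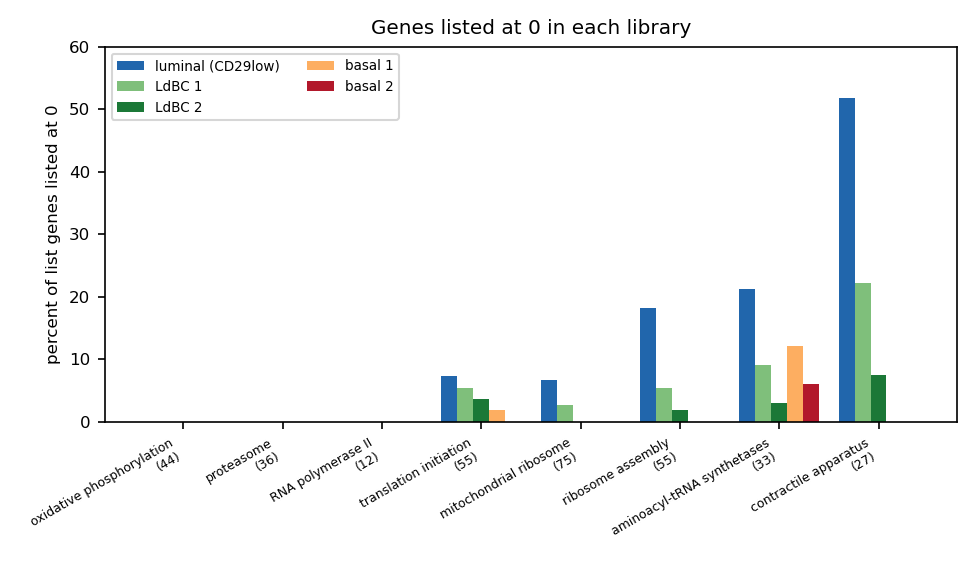
Bars give the percent of the genes of a set listed at 0 FPKM in each library, with the number of genes in brackets. Oxidative phosphorylation, proteasome and RNA polymerase II have no bar, the luminal bar is the tallest in the other 5 sets, and it reaches 14 of 27 genes for the contractile apparatus.

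Lists of genes of the basal layer were then read for what was shared. These lists cover transcription factors, keratins and adhesion, the contractile apparatus, basement membrane, integrins and matrix receptors, and secreted products, and together they have 121 genes tested. Of the 121, 38 (31.4%) were at least 4-fold higher in every CD29hi library and 3 (2.48%) lower, beside 8.38% and 7.4% of all genes. Limma called 32 of the 121 higher and 0 lower, beside 3.47% and 3.93% of all genes. At an unadjusted p under 0.05 were 62 higher and 8 lower, beside 1793 and 2143 of all 10626 genes. Only 49 of the 121 (40.5%) were at a similar level in LdBC and basal libraries, beside 60.1% of all genes, while 65 had the higher mean in basal libraries and 7 in LdBC. Of the 38 higher genes, 14 (36.8%) were at a similar level, beside 72.5% of all genes past 4-fold, and 23 of the remaining 24 were higher in basal libraries. The median of LdBC minus basal was -1.32 over the 121 genes and 0.20 over all genes tested.

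**Figure D4:**
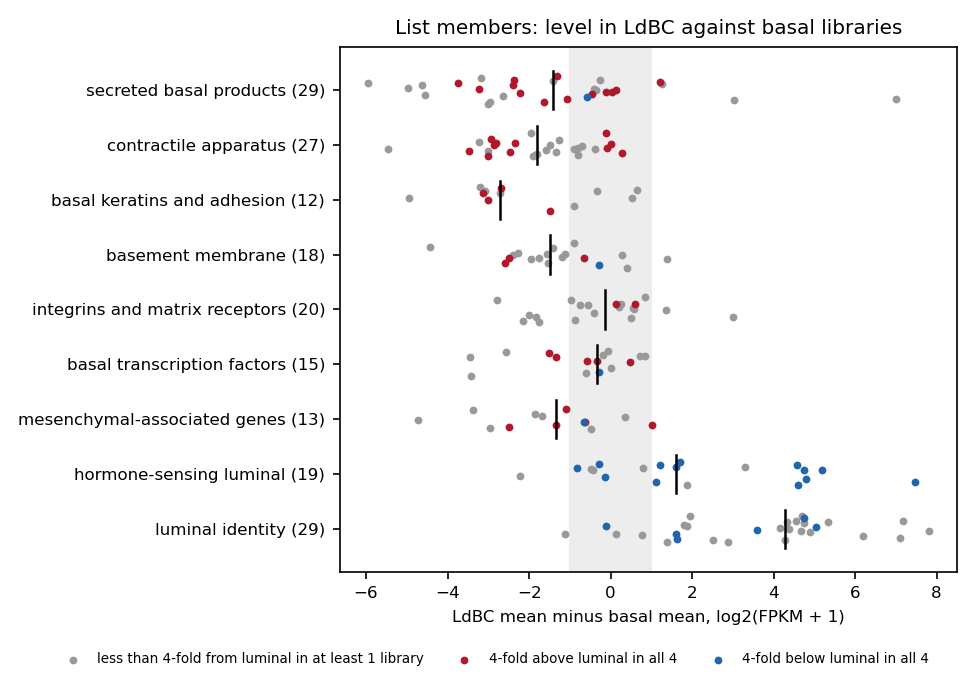
Each point is a tested gene of a list (number in brackets), placed by its LdBC mean minus its basal mean in log2(FPKM + 1); the vertical bar is the list's median and the grey band 1 log2 unit. Most red points of the contractile and keratin lists lie left of the band, and most luminal identity genes lie right of it.

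Among 15 basal transcription factors tested, 10 (66.7%) were at a similar level, beside 60.1% of all genes, and 5 (33.3%) were at least 4-fold higher, beside 8.38%. Limma called 2 of the 15 higher, Sox10 and Snai2, beside 3.47% of all genes. Snai2, which encodes Slug, was not shared by the rule, with 36.6 and 49.2 FPKM in LdBC, with 99.2 and 121 in basal libraries against 0 in the luminal library. Tead1 and Yap1, the DNA-binding factor and the coactivator of Hippo signalling, were past 4-fold at a similar level but without a call. Yap1 was at 0 in the luminal library, 10.4 and 7.88 in LdBC, with 14.5 and 9.35 in basal libraries (3.50 ± 0.56, limma adjusted p = 0.0534). Tead1 was at 0 in the luminal library, 24.0 and 4.15 in LdBC, with 18.1 and 13.9 in basal libraries (adjusted p = 0.101). Wwtr1, which encodes the related coactivator TAZ, lay between 33.1 and 39.0 FPKM in all 5 libraries, the luminal value of 36.1 inside the range of the others. Tbx3, which is active in hormone-sensing luminal cells and stands in this list as a developmental factor, had 22.7 in the luminal library and at most 1.30 in the CD29hi libraries (adjusted p = 0.0601).

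Of 27 contractile genes, 11 (40.7%) were at least 4-fold higher, beside 8.38% of all genes, and limma called 14 higher, beside 3.47% of all genes. At a similar level were 9 of the 27 (33.3%), beside 60.1% of all genes. The shared ones past 4-fold were Pdlim3, Smtn, Vcl and Actn1. Actn1, alpha-actinin, had 0.0416 FPKM in the luminal library, 18.0 and 5.30 in LdBC, with 8.85 and 13.1 in basal libraries (limma adjusted p = 0.0846). Also past 4-fold, Acta2, Tagln, Cnn1, Mylk, Myl9 and Tpm2 were called higher by limma and had basal means 2.35 to 3.47 log2 units above LdBC means. These include smooth muscle actin, a myosin light chain and its kinase, calponin and a tropomyosin, while vinculin and alpha-actinin among the shared genes link actin to adhesion sites and to itself.

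Of 12 keratin and adhesion genes, 4 (33.3%) were at least 4-fold higher, beside 8.38% of all genes. None of these 4 was at a similar level, beside 72.5% of all genes past 4-fold higher. The 4 were Krt5, Krt14, Krt17 and Lgals7, all with higher basal means, by 1.49 to 3.13 log2 units. Of 18 basement membrane genes, 3 (16.7%) were at least 4-fold higher, beside 8.38% of all genes, and 1 of the 3 was at a similar level. That gene, Col4a6, a collagen IV chain, had 0 FPKM in the luminal library, 3.96 and 5.0 in LdBC, with 9.24 and 6.09 in basal libraries (limma adjusted p = 0.0688). Lama5, a laminin chain, was past 4-fold in the other direction, with 28.5 in the luminal library and 3.87 to 6.09 in the CD29hi libraries (adjusted p = 0.0688). Of 20 integrins and matrix receptors, 13 (65.0%) were at a similar level and 2 (10.0%) were at least 4-fold higher, Cd44 and Itgb5, shares close to the 60.1% and 8.38% of all genes. Itgb5 was at 0 in the luminal library, 13.5 and 9.68 in LdBC, with 9.79 and 5.30 in basal libraries (adjusted p = 0.0603). Itga6, the alpha chain that pairs with beta chains in hemidesmosomes, had 25.9 in the luminal library and 23.4 to 66.8 in the CD29hi libraries, which overlapped the luminal value.

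Of 29 secreted products, 13 (44.8%) were at least 4-fold higher, beside 8.38% of all genes, and limma called 11 higher, beside 3.47%. At a similar level were 8 of the 29 (27.6%), beside 60.1% of all genes. The shared genes past 4-fold were Chi3l1, Thbs1, Lcn2 and Timp2. Timp2, an inhibitor of metalloproteinases, had 0.0861 FPKM in the luminal library, 34.7 and 9.93 in LdBC, with 19.0 and 17.8 in basal libraries (limma adjusted p = 0.065). Igfbp5, an insulin-like growth factor binding protein, was at a similar level and called higher without reaching 4-fold in every library, with 25.1 in the luminal library, 93.5 and 102 in LdBC, with 121 and 138 in basal libraries (2.12 ± 0.22, adjusted p = 0.0372). Serpine2, a protease inhibitor, had 304 in the luminal library, 0.131 and 14.7 in LdBC, with 4.34 and 6.44 in basal libraries (adjusted p = 0.0995). Of the 9 genes past 4-fold that were not shared, 8 had the higher basal mean, among them Apoe, Mgp, Ctgf and Cxcl14, and 1, Lbp, the higher LdBC mean.

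Of 13 genes associated with mesenchymal cells, 5 (38.5%) were at least 4-fold higher, beside 8.38% of all genes. Of the 5, Mmp2 alone (20.0%) was at a similar level, beside 72.5% of all genes past 4-fold higher. Cdh2, N-cadherin, was shared in the other direction, with 9.27 FPKM in the luminal library, 0 in both LdBC libraries, and 0.351 and 0.821 in basal libraries (-3.04 ± 0.43, limma adjusted p = 0.0466). The Cdh2 call was lost with median-of-ratios scaling (-2.48, adjusted p = 0.0634) and with no filter on low values (adjusted p = 0.0571).

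In the lists of signalling genes, the shares at least 4-fold higher were 14.3% for Notch, 8.0% for Wnt and 6.67% for EGF and FGF genes, beside 8.38% of all genes. Of 14 Notch pathway genes, 7 (50.0%) were at a similar level, beside 60.1% of all genes, and 2 of these were past 4-fold. Limma called 1 of the 14 higher and 1 lower, beside 3.47% and 3.93% of all genes. Maml2, a Notch coactivator, was at 0 in the luminal library, 13.9 and 21.3 FPKM in LdBC, with 16.2 and 13.2 in basal libraries (4.08 ± 0.51, limma adjusted p = 0.0404, and 0.0539 with a pseudocount of 5). Dll1, a Notch ligand of basal cells, had 0.0456 in the luminal library, 6.29 and 8.05 in LdBC, with 17.0 and 8.87 in basal libraries (adjusted p = 0.061). Of 25 Wnt pathway genes limma called 0, with 8 at an unadjusted p under 0.05, beside 3936 of the 10626 genes tested. At a similar level were 10 (40.0%), beside 60.1% of all genes, and 2 of these were past 4-fold. Lgr6, an R-spondin receptor, was at 0 in the luminal library and 6.34 to 13.5 in the CD29hi libraries (adjusted p = 0.0628), and Sfrp2, a secreted Wnt antagonist, was at 0 and 5.40 to 10.2 (adjusted p = 0.0613). Of 15 receptors and ligands of the EGF and FGF families limma also called 0, and 1 shared gene was past 4-fold. At an unadjusted p under 0.05 were 5 of the 15, beside the same 3936 of 10626. Egfr, the EGF receptor, was at 0 in the luminal library, 4.43 and 17.3 in LdBC, with 10.6 and 10.2 in basal libraries (adjusted p = 0.09).

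Immediate early and stress genes, which dissociation can induce, were at a similar level in 23 of 29 cases (79.3%), beside 60.1% of all genes. Limma called 2 of the 29 higher, Fosl2 and Hspa8, beside 3.47% of all genes. Fosl2, an AP-1 subunit, had 0.546 FPKM in the luminal library, 25.7 and 31.4 in LdBC, with 21.8 and 16.1 in basal libraries (3.96 ± 0.42, limma adjusted p = 0.0373). Klf4 was also past 4-fold, with 1.66 in the luminal library and 10.2 to 31.8 in the CD29hi libraries (adjusted p = 0.0708). The median of the 29 was -0.59, and it was 0.01 after scaling by the median of ratios and 0.09 after quantile normalization, so its sign depends on the scaling. Fos, a further AP-1 subunit, had 1675 in the luminal library, 94.2 and 657 in LdBC, with 700.3 and 775 in basal libraries (adjusted p = 0.28).

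The shared lower genes include genes of the luminal library that were nearly or wholly undetected behind the CD29hi gate. Grhl3, a grainyhead-family transcription factor of epithelial barriers, had 99.6 FPKM in the luminal library, 0 in 3 CD29hi libraries and 0.0347 in basal 2 (-6.64 ± 0.45, limma adjusted p = 0.0325). Plac8 had 246 in the luminal library, 0 and 0.739 in LdBC, with 0.204 and 0 in basal libraries (-7.68 ± 0.61, adjusted p = 0.0325). Hist3h2ba, a histone H2B gene, had 258 in the luminal library, 0.29 in LdBC 1 and 0 in the other 3 (-7.92 ± 0.51, adjusted p = 0.0325). For these genes the luminal library stood alone. The 7 others that were named by the same rule and called by limma had 44.9 to 234 FPKM in the luminal library and at most 2.76 in any CD29hi library. They were Wfdc12 (a whey acidic protein family member), Gmpr (a GMP reductase), Gmfg (an actin branch regulator), Ube2t (a ubiquitin-conjugating enzyme of DNA repair), Hpdl, Tctn2 (a protein of the cilium base) and Ankrd13d. Defb1, an antimicrobial beta-defensin, had 764 in the luminal library and 0, 6.96, 0.559 and 2.71 in the CD29hi libraries (adjusted p = 0.0572). Red blood cell genes summed to 1275 FPKM in the luminal library and 0.708 to 27.5 in the CD29hi libraries. Immune cell markers summed to 33.1 and 5.93 to 26.6. The part of RNA from other cells in the shared lower genes was not tested.

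Listed at 0 in all 4 CD29hi libraries were Slc44a4 (a choline transporter-like protein) at 255 FPKM in the luminal library, Folr2 (a folate receptor) at 125, Fam183b at 93.4, Chst5 (a carbohydrate sulfotransferase) at 63.3, O3far1 (the receptor for long-chain fatty acids now named Ffar4) at 54.4 and Chst8 (a sulfotransferase of sugar chains) at 52.0. Limma called all 6 lower (adjusted p = 0.0325 for each). Being at 0 in every CD29hi library makes their LdBC and basal levels equal by construction.

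**Figure D5:**
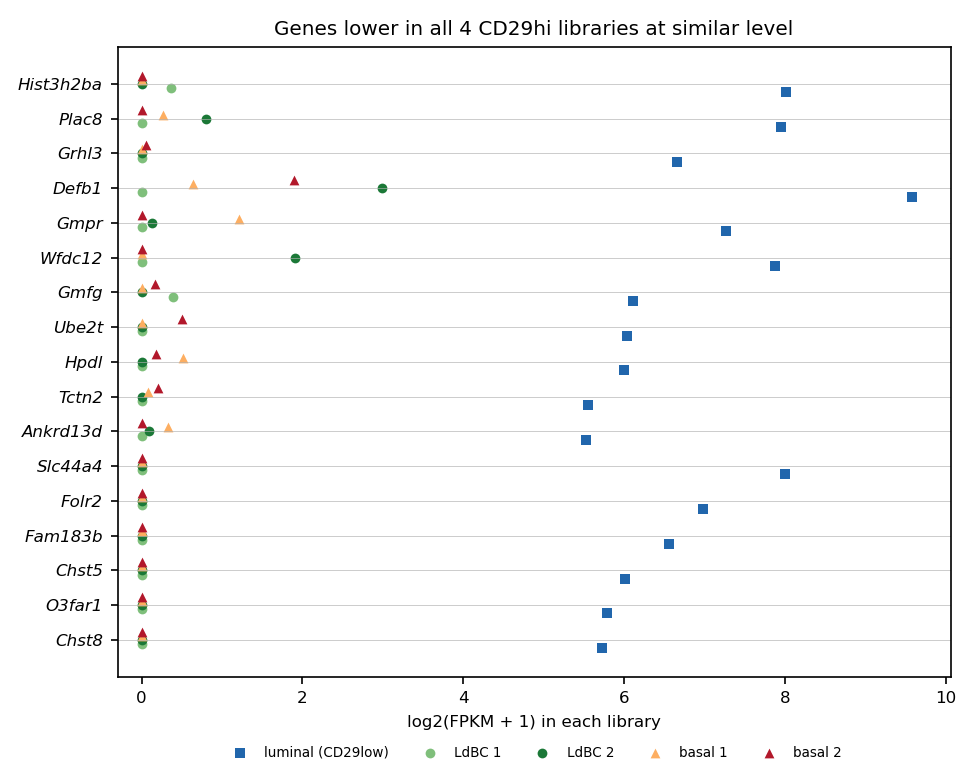
The x axis gives log2(FPKM + 1) in each library for the shared lower genes named in the text by size of difference and for the 6 listed at 0 in every CD29hi library; squares are the luminal library, circles LdBC and triangles basal libraries. Every square lies right of the CD29hi points, and Defb1 and Wfdc12 have LdBC 2 as the rightmost CD29hi point.

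Genes of hormone-sensing luminal cells were low behind the gate, but few of them at a shared level. Of 19 tested, 13 (68.4%) were at least 4-fold lower in every CD29hi library, beside 7.4% of all genes, and 3 of the 13 were at a similar level in LdBC and basal libraries. The median difference of the list was -5.49, and limma called 1 of the 19 lower, Fxyd2, beside 3.93% of all genes. Pgr, the progesterone receptor, had 31.2 FPKM in the luminal library, 0 and 0.863 in LdBC, with 1.24 and 0 in basal libraries (-4.49 ± 0.76, limma adjusted p = 0.0558). Esr1, the oestrogen receptor, had 14.3 in the luminal library, 0 and 2.43 in LdBC, with 2.33 and 2.17 in basal libraries (-2.64 ± 0.89, adjusted p = 0.13). The luminal library was the highest for both receptors, and the CD29hi values of the groups overlapped. The other 10 past 4-fold had higher LdBC means, such as Prlr, the prolactin receptor, with 743 in the luminal library, 7.41 and 68.6 in LdBC, and 0 in both basal libraries (adjusted p = 0.0598).

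The epithelial identity genes of the luminal layer were rarely shared. Of 29 tested, 6 (20.7%) were at least 4-fold lower in every CD29hi library, beside 7.4% of all genes, and limma called 7 lower, beside 3.93%. Such a call uses the average of the LdBC and basal means, so low basal values alone can give it. At a similar level in LdBC and basal libraries were 3 (10.3%), beside 60.1% of all genes, while 25 had the higher LdBC mean. The only shared gene past 4-fold was Esrp1, a splicing regulator of epithelia, with 62.7 FPKM in the luminal library, 4.82 and 12.8 in LdBC, with 8.52 and 8.83 in basal libraries (-2.78 ± 0.63, limma adjusted p = 0.0787). Gata3, a transcription factor of luminal cells, was at a similar level without reaching 4-fold, with 110.1 in the luminal library, 32.8 and 58.0 in LdBC, with 28.9 and 54.8 in basal libraries (adjusted p = 0.165). LdBC and basal values of Gata3 overlapped below the luminal value. Of 25 genes of luminal progenitors and alveolar cells, 4 were at a similar level and Lcn2 was the only shared gene past 4-fold, while 21 had the higher LdBC mean. The list's median difference from the luminal library was 3.55 and 3.12 in LdBC, with 0.0 in both basal libraries. Hormone-sensing genes summed to 48313 FPKM in the luminal library and 237 to 2854 in the CD29hi libraries. Lcn2 also stands in the list of secreted basal products. The part of the luminal library's cell make-up in the Lcn2 result was not tested.

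B2m, the light chain of class I antigen-presenting molecules, was the most abundant transcript of the luminal library. It had 46216 FPKM there, 4271 and 4857 in LdBC, with 2875 and 1858 in basal libraries (-3.83 ± 0.30, limma adjusted p = 0.0325). The luminal value was 9.52 times the highest CD29hi value in FPKM, and the LdBC and basal means were 0.98 log2 units apart, just inside the limit. Of 19 class I pathway genes, 15 (78.9%) were at a similar level, beside 60.1% of all genes, and B2m was the only one past 4-fold or called. The heavy chain gene H2-K1 had 1206 in the luminal library, 1201 and 920.3 in LdBC, with 730.5 and 536 in basal libraries (adjusted p = 0.22). Of 8 class II genes, 2 were at a similar level and H2-Ab1 was past 4-fold without a call, with 0 in the luminal library, 14.5 and 33.2 in LdBC, with 65.5 and 26.9 in basal libraries (adjusted p = 0.0531). Class II genes are carried by immune cells. Of 5 immune cell markers in the table, 3 were tested, and none was past 4-fold. The summed FPKM of all 5 was 33.1 in the luminal library, 26.6 and 16.7 in LdBC, with 20.3 and 5.93 in basal libraries.

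Of 17 interferon response genes limma called 0, with 5 at an unadjusted p under 0.05, beside 3936 of the 10626 genes tested. The shared ones past 4-fold went both ways. Gbp2 and Rtp4 were at 0 in the luminal library and at 5.88 to 24.1 and 4.02 to 10.5 FPKM in the CD29hi libraries. Usp18 and Xaf1 had 60.9 and 37.0 in the luminal library and at most 5.92 and 3.74 in the CD29hi libraries.

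Of 18 proliferation genes, 12 (66.7%) were at a similar level and 2 (11.1%) were at least 4-fold lower, near the 60.1% and 7.4% of all genes. Aurka, a mitotic kinase, had 13.6 FPKM in the luminal library, 0 and 0.566 in LdBC, with 0.0577 and 0.0528 in basal libraries (-3.67 ± 0.47, limma adjusted p = 0.0419). The Aurka call was lost with a pseudocount of 0.1 (adjusted p = 0.0691) and with no filter on low values (adjusted p = 0.0521). Ccna2, a cyclin of S phase and mitosis, had 29.3 in the luminal library, 0.233 and 3.41 in LdBC, with 0.113 and 1.58 in basal libraries (adjusted p = 0.094). The median difference of the list was 0.16, and its sign was not stable, with -0.89 at a mean FPKM of at least 5, -0.55 after quantile normalization, -0.22 without LdBC 1 and 0.73 with median-of-ratios scaling.

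Oxidative phosphorylation was the list most often at a similar level. Of 44 subunits, 41 (93.2%) had LdBC and basal means within 1 log2 unit, beside 60.1% of all genes. None was past 4-fold, and limma called 6 lower, beside 3.93% of all genes, namely Ndufa1, Ndufb3, Ndufv2, Uqcrb, Cox5a and Cox6b1. Cox6b1 had 1923 FPKM in the luminal library, 927 and 945 in LdBC, with 497 and 489 in basal libraries (-1.50 ± 0.14, limma adjusted p = 0.033). Uqcrb had 1836 in the luminal library, 491 and 668 in LdBC, with 461 and 447 in basal libraries (-1.85 ± 0.23, adjusted p = 0.0409). Every CD29hi library lay below the luminal one for both. The median of the 44 was -1.25 beside -0.06 over all genes, and with median-of-ratios scaling, which moves the median of all genes by 0.54, it was -0.65. The luminal total of the deposited FPKM was 813063 and those of the CD29hi libraries 405093 to 605251, and the part of this scale in the shared lower genes was not tested.

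Of 17 glycolysis genes, 11 (64.7%) were at a similar level, near the 60.1% of all genes, and none of them was past 4-fold. Limma called 3 of the 17 higher and 1 lower, beside 3.47% and 3.93% of all genes. Ldhb, a lactate dehydrogenase subunit, had 23.2 FPKM in the luminal library, 121 and 126 in LdBC, with 92.3 and 90.9 in basal libraries (2.15 ± 0.21, limma adjusted p = 0.0348). Tpi1, triosephosphate isomerase, had 470 in the luminal library, 190.2 and 143 in LdBC, with 96.3 and 101 in basal libraries (-1.87 ± 0.25, adjusted p = 0.0432). The 2 genes thus differed from the luminal library in opposite directions, each at a similar level behind the gate.

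The limit of 1 log2 unit cuts through a continuous range. Just inside it among the higher genes were Pawr, Rab3ip and Irx3, with LdBC minus basal values of -0.9986, 0.9981 and 0.9961, and just outside were Dhx36, Gpn3 and Mrps2, with 1.0005, 1.0009 and -1.001. Among the lower genes, Mid1ip1, Ccdc134 and Ppp5c lay just inside with 0.9992, -0.9859 and -0.9853, and Racgap1, Mkks and Athl1 just outside with -1.0025, -1.0126 and -1.0132. A limit of 0.5 log2 units left 363 shared higher and 368 shared lower genes, and requiring each LdBC library to be within 1 log2 unit of each basal library left 302 and 270.

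Markers of further cell types were read in the same way. Of 8 endothelial and 4 pericyte genes tested, none was past 4-fold. Over the 9 and 6 genes in the table, the summed FPKM was 26.8 and 14.4 in the luminal library. In the CD29hi libraries it was 7.64 to 189 and 16 to 39.7. The 1 adipocyte gene tested, Fabp4, had 473 FPKM in basal 1 and at most 9.97 in the other 4 libraries. Red blood cell genes were highest in the luminal library. The joined row of the alpha-globin genes, Hba-a1Hba-a2, had 1249 there and at most 23.3 in the CD29hi libraries, and Alas2, the haem synthesis enzyme of red cells, had 26.5 and at most 4.19 (limma adjusted p = 0.065 and 0.122). Alas2 meets the rule for shared lower genes, and is the only one of these other-cell markers that does.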

How the data were processed

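RNA from about 50 sorted cells per library was reverse-transcribed and amplified with a modified Smart-seq2 protocol, per the labels' protocols. The submitters' processing notes name the build mm10 and the tools Cuffdiff 2.0.2, Cufflinks 2.0.2 and TopHat2 2.0.4. The deposited table gives log2 values, which match log2(FPKM + 1), for 12311 rows. The annotation and the handling of near-identical gene copies and of strand are not given in the sources used here. Read depth is unknown, since FPKM are not counts. From the commonest ratio of low values, 1 fragment weighs 1.64 times as much in the luminal library as in basal 2, at 21 of 118 low genes. The ratio to basal 2 was 1.36 for LdBC 1 (12 of 131 low genes), 1.35 for LdBC 2 (19 of 180) and 0.548 for basal 1 (14 of 178). At 2 times the ratio lay 7, 7, 6 and 13 genes for the luminal library, LdBC 1, LdBC 2 and basal 1. At 0.5 times the ratio lay 10, 7, 17 and 3 genes. These ratios are therefore rough, and those of LdBC 2 and basal 1 are not settled. Rows whose names had become dates (18, 0.085% to 0.119% of FPKM) were left out.

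The 10626 genes with a mean of at least 1 FPKM were fitted with limma 3.58.1 (R 4.3.3, intensity trend, pseudocount 1), with a mean for luminal, LdBC and basal libraries. The contrast is the average of the LdBC and basal means minus luminal. Residual degrees of freedom were 2 and prior degrees 1.65. Tests were two-sided and adjusted over all genes by Benjamini-Hochberg. The lone luminal library was taken to vary as much as the rest. A gene past 4-fold has every CD29hi library at least 2 log2 units from luminal.

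Members, lists and the named genes were chosen with earlier results of these data known. Named are, among shared genes past 4-fold, the 12 largest gaps between luminal and the nearest CD29hi library in each direction (lowest CD29hi or luminal level at least 10 FPKM), the 10 highest with luminal at 0, the 6 highest with all CD29hi at 0, list members past 4-fold, and the 3 nearest the limit on each side. Other list members, and genes that contrast with them, were named after their values were seen. Older symbols were matched through RefSeq, where Chi3l1 is Chil1, and 12045 rows matched. Some genes that meet the rule are not reported here.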

Additional observations from a re-analysis of the deposited data

Results flagged for a closer look

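A single library stood apart from the other 3 of the CD29hi gate in 11 of 78 genes checked, where its gap to the nearest library, as a share of the range of the 4, was above Dixon's critical value for 4 samples. Chance flags about 1 in 20 groups of normally spread values. That rate does not carry over to genes with the other 3 libraries at 0 or to genes chosen for their levels, so the count is not read against it. Basal 1 was the highest for Chi3l1 (share 0.958, at 3497 FPKM) and Gmpr (0.898, at 1.31 FPKM). LdBC 1 was the highest for Tank (0.874, at 183 FPKM), Cd44 (0.838, at 92.8 FPKM) and Hist3h2ba (1.0, at 0.29 FPKM), and the lowest for Esr1 (0.937, at 0 FPKM). LdBC 2 was the highest for Smpdl3a (0.859, at 116 FPKM), Wfdc12 (1.0, at 2.76 FPKM) and Aurka (0.875, at 0.566 FPKM). Basal 2 was the highest for Grhl3 (1.0, at 0.0347 FPKM) and Ube2t (1.0, at 0.417 FPKM). A share of 1.0 means that the other 3 libraries were all listed at 0.

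In 3 lists the LdBC and basal medians lay on opposite sides of the luminal library, and the difference was not tested. The LdBC minus basal difference of these medians was -0.45 for integrins and matrix receptors, 0.40 for aminoacyl-tRNA synthetases and 0.23 for translation initiation factors. These signs rest on medians close to 0, namely -0.05 and -0.01 in LdBC for integrins, -0.06 and -0.07 in basal libraries for the synthetases, and -0.09 in both basal libraries for the initiation factors. With median-of-ratios scaling the median differences of these lists went from 0.25, 0.12 and 0.14 to 0.84, 0.67 and 0.71.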

How the results depend on the processing

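Single genes were not recomputed with the lineage label ignored, without the intensity trend or with the replicate block. Some were filtered out at a mean FPKM of at least 5. None of the 96 genes changed direction under the alternatives in which it was recomputed, but 7 of 34 list medians did. Those of EGF and FGF genes (0.75), aminoacyl-tRNA synthetases (0.12), endothelial (1.14) and immune genes (0.96) became -0.20, -0.42, -0.58 and -1.89 at a mean FPKM of at least 5, that of glycolysis (-0.59) became 0.01 with median-of-ratios scaling, and those of proliferation and immediate early genes turned as given above. Limma calls, 369 higher and 418 lower, became 1012 higher with a pseudocount of 0.1, 743 lower with a pseudocount of 5, 261 lower with no filter on low values, 827 and 758 with a mean FPKM of at least 5, 213 lower with median-of-ratios scaling, and 212 and 205 with the lineage label ignored. Leaving out a CD29hi library leaves a lone library in its group and fewer residual degrees of freedom, so calls from such fits are not compared. With the replicate block limma called 0 genes higher and 0 lower, with 3089 genes at an unadjusted p under 0.05. Only 2 pairs share numbers, and the correlation of their deviations over genes was 0.012. From so few pairs it cannot be decided whether the numbers pair the libraries. The luminal library, the only one of its gate, cannot be left out. The share of calls that were higher was 46.9%, and 66.0% and 24.9% with pseudocounts of 0.1 and 5, 62.8% after scaling by the median of ratios and 56.8% after quantile normalization, which moved the median of all genes by 0.54 and 0.26.

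Genes past 4-fold, 890 higher and 786 lower, became 1753 higher with a pseudocount of 0.1, 162 and 416 with 5, 465 lower with median-of-ratios scaling, 1628 and 2051 with a limit of 1 log2 unit, and 379 and 307 with 3. Shared genes, 645 and 557, became 1032 higher with a pseudocount of 0.1, 113 and 361 with 5, 359 lower with a mean FPKM of at least 5, 347 lower with median-of-ratios scaling, 363 and 368 with a similarity limit of 0.5, and 302 and 270 with every LdBC and basal pair within 1 log2 unit. With genes above 0 in the luminal library alone, an alternative chosen after seeing the data, 321 were past 4-fold higher and 255 of them shared. Of 96 genes in the tables of named genes, 26 gained and 13 lost their call at least once under settings that kept every library. Among the latter, Krt8 and Epcam had adjusted p of 0.0825 and 0.117 with median-of-ratios scaling, Gmpr and Wfdc12 had 0.0585 and 0.0695 with a pseudocount of 0.1, and Clpp and Smpdl3a had 0.0511 and 0.0539 with a pseudocount of 5. With no counts, a 0 in the luminal library limits every shared higher gene at 0 there. In each case the cause was not tested.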

Other observations

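Ribosome assembly genes were collected after the values were seen and include genes named above for their size of difference, so their counts are a description. Of 55 tested, 14 (25.5%) were at least 4-fold higher in every CD29hi library, beside 8.38% of all genes. Of the 14, 11 (78.6%) were at a similar level in LdBC and basal libraries, beside 72.5% of all genes past 4-fold higher. Limma called 9 of the 55 higher and 1 lower, beside 3.47% and 3.93% of all genes. Lsg1, a GTPase of large subunit export, had 0.0702 FPKM in the luminal library, 22.5 and 20.3 in LdBC, with 24.8 and 21.8 in basal libraries (4.44 ± 0.39, limma adjusted p = 0.0325). Dkc1, the pseudouridine synthase dyskerin, had 0.113 in the luminal library, 25.1 and 22.9 in LdBC, with 21.5 and 37.5 in basal libraries (adjusted p = 0.0372). Grwd1, a histone-binding protein of ribosome assembly, had 0.0865 in the luminal library, 46.6 and 21.7 in LdBC, with 53.1 and 42.4 in basal libraries (adjusted p = 0.0373). The set's median difference was 1.01, and it stayed between 0.62 and 1.41 over the alternatives run. Of these 55 genes 10 were listed at 0 in the luminal library.

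Of 30 aminoacyl-tRNA synthetases tested, 5 (16.7%) were at least 4-fold higher, beside 8.38% of all genes, and 1 (3.33%) lower, beside 7.4%. All of these were shared. The set, too, was chosen after the values were seen. Yars had 1.19 FPKM in the luminal library, 33.6 and 30.6 in LdBC, with 47.8 and 44.1 in basal libraries (4.17 ± 0.31, limma adjusted p = 0.0325). Tars had 6.71 in the luminal library, 83.2 and 47.6 in LdBC, with 44.8 and 51.6 in basal libraries (adjusted p = 0.0495). Vars had 70.1 in the luminal library and 5.46 to 14.6 in the CD29hi libraries (adjusted p = 0.0586).

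Glandular kallikreins, secreted serine proteases in a cluster of near-identical copies, differed between members. Klk1, Klk1b1 and Klk1b9 had 40.9, 45.7 and 43.5 FPKM there and were listed at 0 in all 4 CD29hi libraries (limma adjusted p = 0.0325 for each). Klk1b22 had 91.2 in the luminal library, 5.38 in basal 1 and 0 in the other 3 (adjusted p = 0.0698). The other 3 tested were highest in LdBC 2, where Klk1b11, Klk1b5 and Klk1b8 had 13.1, 6.03 and 7.7 FPKM, against 0.223, 0 and 0 in the luminal library and 0 in the remaining CD29hi libraries. Since reads of these copies may have been divided between them by the authors' software, the split among members is uncertain.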
